A study of Mus musculus with 12 samples.

Results

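The genes that encode the chains of collagen were measured by sequencing of polyadenylated RNA in the left ventricle of the mouse heart. They were taken as the rows of the deposited count table whose symbol is Col, a number, a and a second number, which gave 44 genes of 29564. The mice were wild-type C57BL6 by the labels, male C57BL/6J by the study's methods, and each library came from 1 animal. Control-Veh animals (libraries C1 to C4) were non-failing and received vehicle. HFpEF-Veh animals (V1 to V4) carried the HFD/L-NAME model of HFpEF, a heart failure in which the ejection fraction is preserved, made by feeding a high-fat diet and giving L-NAME, an inhibitor of nitric oxide synthases, and received vehicle. HFpEF-TYA-018 animals (T1 to T4) carried the same model and received 15 mg/kg of TYA-018 by mouth, a small molecule that inhibits the deacetylase HDAC6. The series title and the study's text describe 1 dose, the hearts being taken hours later, whereas the treatment protocol of the labels describes daily dosing over weeks, and the methods give the age of the animals at purchase but not at collection. The whole ventricle was homogenised, so fewer cells of a type and less RNA per cell cannot be told apart in any value below.

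A collagen molecule is a triple helix of 3 chains, which may be the same or different, so chains encoded at separate genes must be made together. Fibrillar collagens (types I, III and V in the heart) form the fibrils between muscle fibres. Type IV collagen forms the sheet of the basement membrane around muscle cells and vessels, type VI forms beaded filaments next to that membrane, and type VIII forms a network in vessel walls. Collagens of other classes decorate fibrils (the FACIT class), link basement membranes to the matrix, or span the cell membrane. Fibroblasts make most fibrillar collagen of the heart, while endothelial cells and fibroblasts both make type IV and type VI.

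Each of the 12 libraries held 61.2 M to 83.9 M estimated counts, of which 35.4% to 47.7% came from mitochondrial genes. Collagen chains took 0.0651% to 0.142% of the counts. Levels are given as CPM, counts per M (mega) of library size, where library sizes carry the scaling factors of TMM, the trimmed mean of M-values. The markers of heart muscle were present in every group, with Myh6, the alpha myosin heavy chain, at 1139.8 ± 219 CPM (SD, n = 4) in Control-Veh, 636 ± 77.5 CPM in HFpEF-Veh, then 1184 ± 261 CPM in HFpEF-TYA-018. Library C1 stood apart from the other Control-Veh libraries: its collagen chains summed to 1019 CPM against 668 to 744 CPM in C2 to C4. Calls that changed when C1 was left out are therefore also given without it.

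Of the 44 genes, 35 passed the filter on low counts and were tested among 14333 genes. They were 8 of 11 fibrillar chains, all 6 chains of type IV, 2 of 3 network chains, 4 of 6 chains of type VI, and 15 of 18 chains of other classes. The 9 genes that did not pass were nearly silent. Over the 12 libraries Col24a1 had 66 counts, Col11a1 had 62, Col17a1 had 60, Col6a5 had 43, Col2a1 had 39, Col19a1 had 12, Col9a1 had 7, Col6a4 had 6.27 and Col10a1 had 5. Type II, IX, X and XI collagens are known from cartilage, type XVII from epithelia and type XXIV from bone. By group, Col2a1 had 21 counts in Control-Veh, 5 in HFpEF-Veh, then 13 in HFpEF-TYA-018, and Col17a1 had 13, 17 and 30 in the same order. The counts of Col11a1 were 16, 22 and 24, those of Col24a1 17, 26 and 23, and those of Col6a5 15, 17 and 11. For the remaining 4 genes no group summed to more than 6 counts.

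The promoters are shown for the chains with the smallest p-values between HFpEF-Veh and Control-Veh that the table of promoters holds, and for Col4a1, which shares its promoter with Col4a2. Col1a1, also among the 4 smallest, has no entry in that table. Sequences are from RefSeq on GRCm38.p6, run 5′ to 3′ on the strand of the gene from 250 bases before its start to 50 after, and 35 of the 44 genes have an entry. Capitals mark matches on either strand to 4 short motifs, without regard to overlap: the CCAAT box, the GC box with the letters GGGCGG, the TATA box with the letters TATAAA, and the SMAD element, for which the letters CAGAC were searched. The windows are chr8:11312777-11313076 on the minus strand for Col4a1, chr8:11312555-11312854 on the plus strand for Col4a2, chr10:76725995-76726294 on the minus strand for Col6a1 and chr10:76623355-76623654 on the minus strand for Col6a2.
Col4a1: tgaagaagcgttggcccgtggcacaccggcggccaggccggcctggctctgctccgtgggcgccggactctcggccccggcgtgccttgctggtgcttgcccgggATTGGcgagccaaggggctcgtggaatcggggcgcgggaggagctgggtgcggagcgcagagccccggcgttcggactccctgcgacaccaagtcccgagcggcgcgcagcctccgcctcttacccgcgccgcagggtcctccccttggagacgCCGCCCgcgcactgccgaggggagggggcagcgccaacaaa
Col4a2: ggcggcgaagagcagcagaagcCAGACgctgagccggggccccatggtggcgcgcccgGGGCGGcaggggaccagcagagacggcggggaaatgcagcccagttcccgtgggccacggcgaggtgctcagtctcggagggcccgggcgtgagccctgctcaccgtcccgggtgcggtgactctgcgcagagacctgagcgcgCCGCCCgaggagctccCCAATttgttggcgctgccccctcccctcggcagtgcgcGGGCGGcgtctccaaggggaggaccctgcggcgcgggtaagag
Col6a1: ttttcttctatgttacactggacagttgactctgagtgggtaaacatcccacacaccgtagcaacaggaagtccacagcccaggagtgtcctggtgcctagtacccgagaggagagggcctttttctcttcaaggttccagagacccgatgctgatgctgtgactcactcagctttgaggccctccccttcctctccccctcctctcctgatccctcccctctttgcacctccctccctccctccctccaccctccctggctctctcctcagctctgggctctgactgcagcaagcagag
Col6a2: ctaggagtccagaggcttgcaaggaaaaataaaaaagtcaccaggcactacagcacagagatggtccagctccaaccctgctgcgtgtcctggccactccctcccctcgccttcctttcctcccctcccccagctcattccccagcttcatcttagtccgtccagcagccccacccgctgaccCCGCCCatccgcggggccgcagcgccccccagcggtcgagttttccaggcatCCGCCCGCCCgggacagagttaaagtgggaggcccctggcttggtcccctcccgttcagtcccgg

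The start sites of Col4a1 and Col4a2 lie 21 bases apart on opposite strands, and 78 bases belong to both windows. The shared stretch holds 1 match to GGGCGG, at position 10 counted from the start of Col4a1 and at position 8 from that of Col4a2. Col4a2 has 2 more, at positions -192 and -48, and a CCAAT at position -32, while the CCAAT match of Col4a1 stands at position -145. Col6a1 held none of the 4 motifs in its window, whereas Col6a2 held GGGCGG at positions -67, -15 and -11. GGGCGG was found in 19 of the 27 tested chains with an entry (70.4%), beside 35.9% of the promoters of all 27025 genes. CCAAT was found in 33.3% of the tested chains and 37.9% of all promoters, TATAAA in 11.1% and 14.2%, and CAGAC in 55.6% and 49.7%. The promoters of the tested chains were richer in G and C, with a median of 61.7% against 52.7%. A match is a run of letters and not a binding site.

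The highest levels per length belonged to type IV. Divided by the kilobases of the longest annotated transcript, the mean over the 12 libraries was 43.4 CPM per kb for Col4a2 and 25.5 for Col4a1. Col3a1 at 15.5, Col1a2 at 14.6, Col6a1 at 13.8, Col6a2 at 12.5 and Col1a1 at 12.2 CPM per kb followed, and neighbours in this order overlapped over the Control-Veh libraries. Col15a1 stood at 9.86, Col5a1 at 3.54, Col5a3 at 3.34 and Col5a2 at 2.77 CPM per kb. On the TPM that the authors deposited, Col4a1 was highest at 10.8 TPM, followed by Col3a1 at 10.3, Col4a2 at 10.2, Col15a1 at 7.80 and Col6a2 at 5.48 TPM, and Col1a1 came ninth at 1.96 TPM. The scales divide by different lengths: the deposited mean effective length of Col1a1 was 12979 bases, whereas its longest annotated transcript has 5930.

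In the HFpEF-Veh ventricle the chains of types I, III and V, 3 chains of type VI, Col4a2 and Col15a1 rose, while Col4a5 and Col23a1 fell. Of the 35 tested chains, 11 were higher than in Control-Veh and 2 were lower at an edgeR p under 0.05 after Benjamini-Hochberg (BH) adjustment, which is 31.4% and 5.71% of the chains beside 10.9% and 10.3% of all genes. The median log2 fold change was 0.54 over the chains and -0.01 over all genes. The 11 chains that rose did so by 1.30-fold to 2.35-fold. In 14 chains (40.0%, beside 23.5% of all genes) the 4 HFpEF-Veh libraries did not overlap the 4 Control-Veh libraries, 9 lying above and 5 below. Without C1, 17 chains were called higher and 1 lower (48.6% and 2.86%), beside 14.2% and 13.4% of all genes in that fit. The chains added were Col4a1, Col14a1, Col8a1, Col9a2, Col4a4 and Col18a1, and Col23a1 was lost. The summed chains read 668 to 1019 CPM in Control-Veh and 1281 to 1435 CPM in HFpEF-Veh.

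In the HFpEF-TYA-018 ventricle 12 chains were lower than in HFpEF-Veh on counts, and none was higher by edgeR. They were 6 fibrillar chains of types I, III and V, Col4a2, Col4a3, Col4a4, Col6a1, Col6a2 and Col15a1. That is 34.3% of the chains lower beside 10.4% of all genes, and 0% higher beside 8.93%. The 12 chains fell by 1.36-fold to 1.73-fold, and the median log2 fold change was -0.38 over the chains and 0.00 over all genes. At an unadjusted p under 0.05, 1 chain was higher and 16 were lower, together 48.6% beside 33.2% of all genes, and DESeq2 called 1 higher (Col11a2) and 12 lower. Libraries of the groups did not overlap in 11 chains (31.4%, beside 25.1% of all genes), with HFpEF-TYA-018 below in 10 and above in 1. The summed chains read 881 to 1048 CPM in HFpEF-TYA-018, below every HFpEF-Veh library. The comparison with HFpEF-Veh uses the same 4 HFpEF-Veh libraries as the one with Control-Veh, so high values in those libraries enter both with opposite sign.

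The fall depended on the scale. On TPM the summed chains were 50.4 ± 12.97 in Control-Veh, 74.5 ± 10.0 in HFpEF-Veh, then 71.9 ± 16.4 in HFpEF-TYA-018 (SD, n = 4), and the last 2 groups differed by less than their spread. Limma on log2(TPM + 1) called none of the 12 chains lower and 1 chain, Col11a2, higher. On that scale the median of all genes moved by 0.17 between HFpEF-Veh and HFpEF-TYA-018, with 2228 genes called higher and 68 lower, against 1280 and 1487 on counts. Relative to that median all 12 chains stayed below, and the median of the 35 chains lay 0.16 below it. The 12 chains were picked as lower in these same libraries, so their place below the median, here and on rescaled TPM, is no separate support. The added 1 also leaves little room to move for chains well under 1 TPM. Col4a4, for example, averaged 0.175 TPM in HFpEF-Veh and 0.170 TPM in HFpEF-TYA-018. On TPM rescaled to protein-coding genes limma kept the call of 2 of the 12 chains, Col4a2 and Col6a2, and called Col11a2 higher. There the median of all genes moved by -0.01, with 368 of 13777 genes called higher and 405 lower, and all 12 chains again lay below it. Effective lengths moved with the groups: relative to the mean over libraries, the median chain's log2 effective length was 0.08 to 0.14 in HFpEF-Veh and -0.16 to 0.02 in HFpEF-TYA-018. Control-Veh ran from -0.07 to 0.07. The median over all tested genes moved likewise, at 0.04 to 0.11 in HFpEF-Veh and -0.16 to 0.01 in HFpEF-TYA-018. With these lengths as an offset in edgeR, 8 of the 12 chains were still called lower and Col11a2 was called higher, at 1.22 on the log2 scale (edgeR, BH-adjusted p = 0.0177). The effective length of Col11a2 was 1639 bases in T4 and 5977 to 8892 bases in the other libraries. T4 thus had the lowest CPM of Col11a2, 2.49, but the highest TPM, 0.493. T1 to T3 read 0.260 to 0.374 TPM, against 0.111 to 0.138 TPM in HFpEF-Veh. The chains that lost the call were Col3a1, Col5a1, Col4a3 and Col15a1, while the share of all genes called was 3.94% higher and 4.55% lower. For Col5a1 the effective length was 8603 bases in C3, 8087 in T2 and 8445 in T4, against 3347 to 4578 bases in the other libraries. The rise in HFpEF-Veh had fewer calls on log2(TPM + 1) too: limma called 1 of the 13 chains, with a median over the 35 chains of 0.03 beside -0.07 over all genes. Calls were fewer over all genes as well, with 51 of 14333 higher and 121 lower, against 1561 and 1472 on counts.

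**Figure D1:**
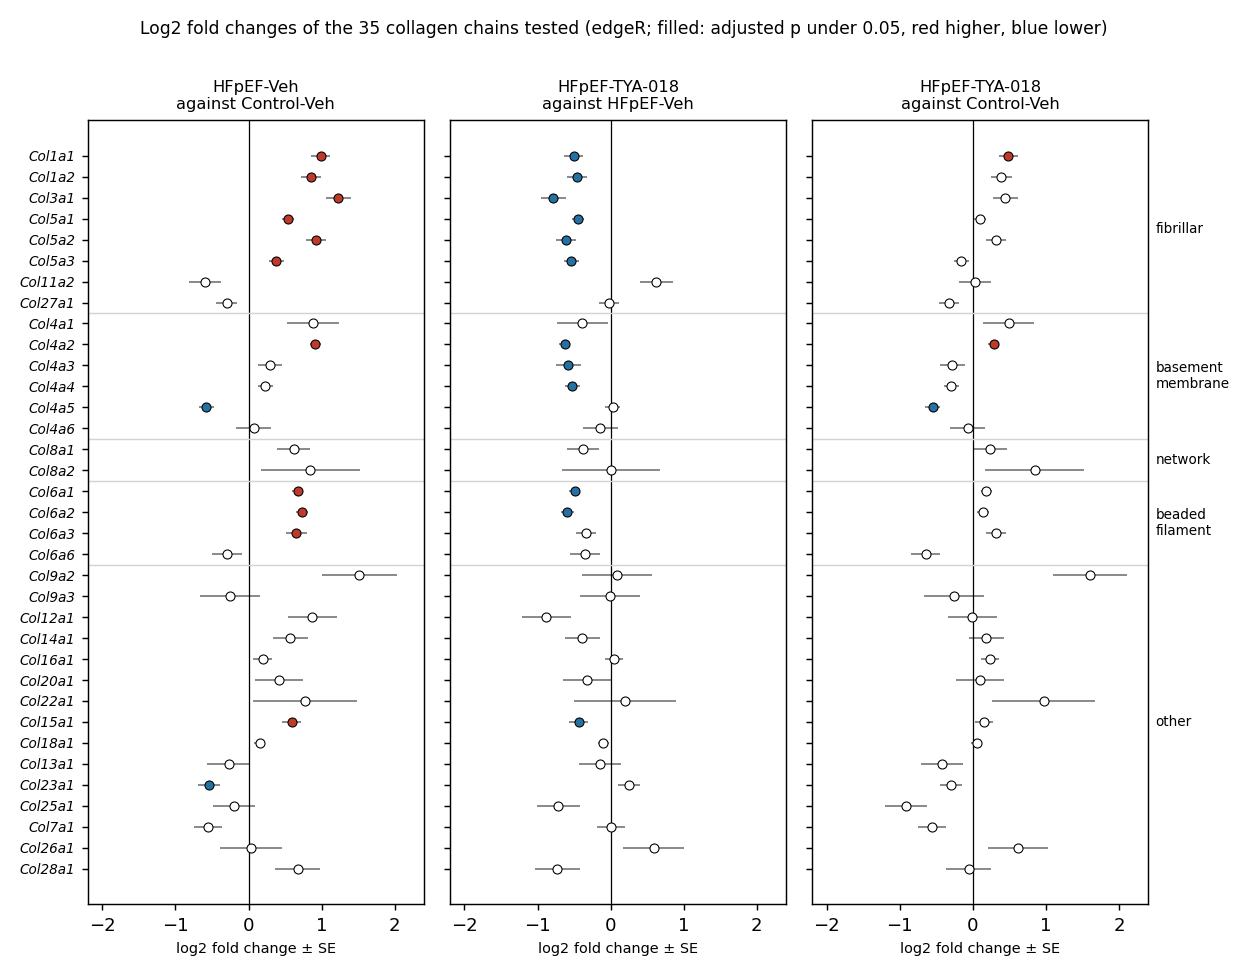
Log2 fold changes (x axis, points with SE) of the 35 tested chains (rows, by class) in the 3 comparisons, with chains past an edgeR BH-adjusted p of 0.05 filled, red for higher and blue for lower. In the first panel 11 chains are red and 2 blue, in the second 12 are blue, and in the third 2 are red and 1 blue.

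Type I collagen, the main fibril former, is built of 2 chains of Col1a1 and 1 of Col1a2, and both genes rose in HFpEF-Veh. Col1a1 (chromosome 11, 94936224 to 94953042, plus strand, GRCm38) is given first. Its level was 59.9, 43.0, 48.7 and 46.8 CPM in C1 to C4, 90.5, 116, 85.1 and 102 CPM in V1 to V4, and 60.6, 61.7, 78.2 and 77.2 CPM in T1 to T4. Every HFpEF-Veh library lay above every Control-Veh library, and the HFpEF-TYA-018 libraries lay between the groups without overlapping either. The log2 fold change was 0.99 ± 0.13 (SE) from Control-Veh to HFpEF-Veh (edgeR, BH-adjusted p = 0.00077) and -0.50 ± 0.13 from HFpEF-Veh to HFpEF-TYA-018 (adjusted p = 0.0189). Col1a2 lies on chromosome 6, 4504814 to 4541544, plus strand. The level of Col1a2 was 72.7, 46.2, 56.3 and 51.9 CPM in C1 to C4, 93.4, 126, 90.1 and 102 CPM in V1 to V4, and 71.8, 67.0, 79.6 and 79.9 CPM in T1 to T4. Its HFpEF-Veh libraries were again above all others, while C1 reached the HFpEF-TYA-018 range. The log2 fold changes were 0.85 ± 0.14 (edgeR, BH-adjusted p = 0.00191) and -0.46 ± 0.14 (adjusted p = 0.0357). Leaving out 1 library lost the fall to HFpEF-TYA-018 in 3 of 8 fits for Col1a1 and in 5 of 8 for Col1a2. The pair kept a close ratio, Col1a1 over Col1a2 being 0.824 to 0.929 in Control-Veh, 0.925 to 1.01 in HFpEF-Veh, then 0.844 to 0.982 in HFpEF-TYA-018.

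Type III collagen, a homotrimer of Col3a1 that forms thin fibrils with type I, had the largest fold change among the called chains. Col3a1 lies on chromosome 1, 45311538 to 45349706, plus strand. The level of Col3a1 was 73.2, 42.1, 52.9 and 51.4 CPM in C1 to C4, 103, 167, 119 and 126 CPM in V1 to V4, and 68.0, 68.9, 84.1 and 77.6 CPM in T1 to T4. V2 was the highest library, and all 4 HFpEF-Veh libraries exceeded those of the other groups. The rise was 2.35-fold, or 1.23 ± 0.17 on the log2 scale (edgeR, BH-adjusted p = 0.000975), and the log2 fold change from HFpEF-Veh to HFpEF-TYA-018 was -0.79 ± 0.17 (adjusted p = 0.00887). The latter was -0.69 with effective lengths as an offset (edgeR, BH-adjusted p = 0.0609) and so no longer called. The ratio of Col3a1 to Col1a1 was 0.979 to 1.22 in Control-Veh, 1.14 to 1.44 in HFpEF-Veh, then 1.01 to 1.12 in HFpEF-TYA-018. HFpEF-Veh and HFpEF-TYA-018 did not overlap in this ratio, while C1 reached into the range of HFpEF-Veh.

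Type V collagen starts the growth of type I fibrils and sets their width, and its 3 chains rose in HFpEF-Veh, Col5a1 by 1.45-fold, Col5a2 by 1.90-fold and Col5a3 by 1.30-fold. Col5a1 lies on chromosome 2, 27886425 to 28039514, plus strand. The level of Col5a1 was 29.1, 21.5, 24.7 and 26.2 CPM in C1 to C4, 35.8, 38.9, 34.3 and 38.7 CPM in V1 to V4, and 26.3, 25.3, 28.9 and 27.7 CPM in T1 to T4. The HFpEF-Veh libraries stood clear of both other groups, which overlapped. Its log2 fold changes were 0.54 ± 0.09 (edgeR, BH-adjusted p = 0.00164) to HFpEF-Veh and -0.45 ± 0.08 (adjusted p = 0.00517) from there to HFpEF-TYA-018. Col5a2, on chromosome 1, 45374321 to 45503282, minus strand, read 18.1, 11.3, 13.2 and 10.6 CPM in C1 to C4, 23.3, 26.6, 24.9 and 26.3 CPM in V1 to V4, and 16.4, 15.5, 16.4 and 17.9 CPM in T1 to T4. C1 was above the HFpEF-TYA-018 libraries and the other Control-Veh libraries were below them. The log2 fold changes of Col5a2 were 0.93 ± 0.14 (edgeR, BH-adjusted p = 0.0012) and -0.61 ± 0.14 (adjusted p = 0.0103). Col5a3, on chromosome 9, 20770050 to 20815067, minus strand, read 18.1, 17.2, 19.1 and 22.3 CPM in C1 to C4, 28.4, 20.7, 25.3 and 25.4 CPM in V1 to V4, and 18.01, 18.5, 17.0 and 15.3 CPM in T1 to T4. V2 fell within the Control-Veh range, whereas the HFpEF-TYA-018 libraries were below all HFpEF-Veh libraries. The log2 fold changes of Col5a3 were 0.38 ± 0.11 (edgeR, BH-adjusted p = 0.0247) and -0.54 ± 0.11 (adjusted p = 0.006). The first of these was lost in 5 of the 8 fits that left out 1 library. The ratio of Col5a2 to Col5a1 was 0.405 to 0.622 in Control-Veh and 0.653 to 0.725 in HFpEF-Veh, which did not overlap,, then 0.566 to 0.648 in HFpEF-TYA-018.

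Col11a2 and Col27a1 were not called in the edgeR model over the 3 groups. Col11a2, a chain of cartilage fibrils, read 4.18, 5.23, 4.59 and 4.52 CPM in C1 to C4, 3.25, 2.95, 2.51 and 3.56 CPM in V1 to V4, and 5.27, 5.90, 5.28 and 2.49 CPM in T1 to T4. All HFpEF-Veh libraries were below all Control-Veh libraries, whereas the HFpEF-TYA-018 libraries ran from below both ranges, in T4, to above both. Its log2 fold changes were -0.60 ± 0.22 (edgeR, BH-adjusted p = 0.0734) and 0.63 ± 0.22 (adjusted p = 0.0662), and DESeq2 called both. With only the 2 groups in the model, edgeR called the first as well, at -0.60 (BH-adjusted p = 0.0170). Col27a1 averaged 8.03 ± 0.440, 6.53 ± 1.05 and 6.41 ± 1.15 CPM in the same order, with log2 fold changes of -0.30 and -0.03.

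**Figure D2:**
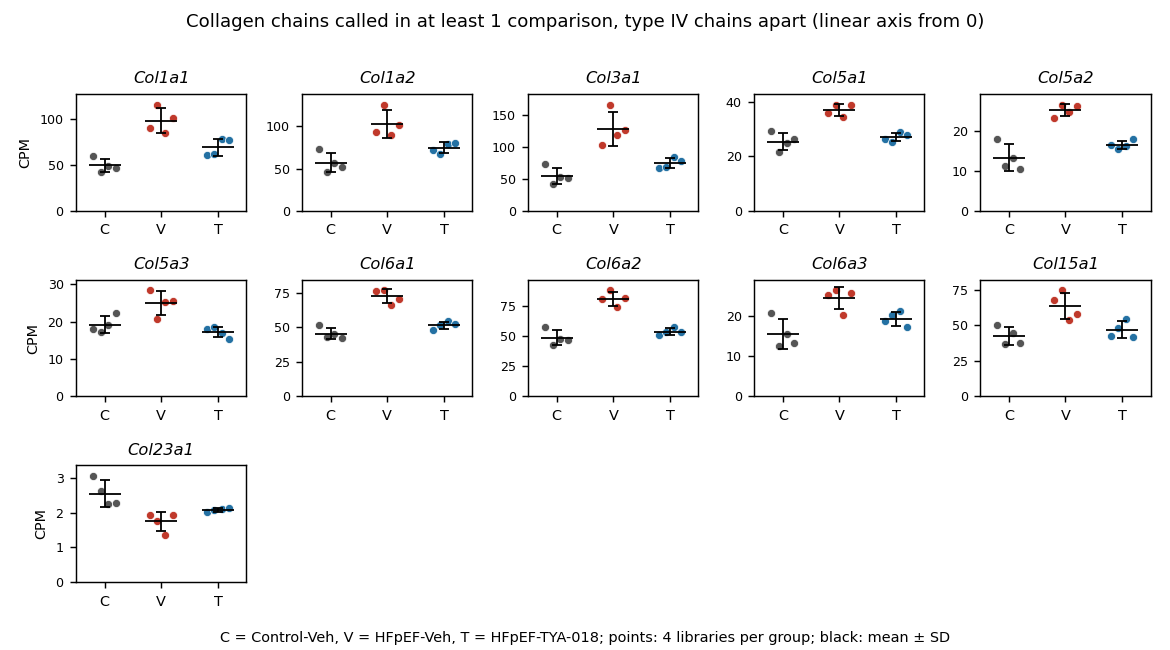
Levels in CPM (y axis, linear from 0, a scale of its own in each panel) of the 11 called chains outside type IV in each of the 4 libraries of Control-Veh (C), HFpEF-Veh (V) and HFpEF-TYA-018 (T), with mean and SD in black. The HFpEF-Veh libraries are highest in 10 panels by mean, and Col23a1 runs the other way.

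The 6 chains of type IV collagen did not move as one. Col4a1 and Col4a2, which together form the common type IV molecule, lie head to head on chromosome 8 and start at the promoter shown above. Col4a2 (chromosome 8, 11312805 to 11449287, plus strand) read 224, 191, 205 and 201 CPM in C1 to C4, 365, 369, 434 and 375 CPM in V1 to V4, and 231, 258, 244 and 265 CPM in T1 to T4. The HFpEF-Veh libraries exceeded all others by a wide margin, and every HFpEF-TYA-018 library exceeded every Control-Veh library. Its rise of 1.88-fold had the smallest p of all chains, with a log2 fold change of 0.91 ± 0.08 (edgeR, BH-adjusted p = 0.000108). From HFpEF-Veh to HFpEF-TYA-018 the log2 fold change was -0.63 ± 0.08 (adjusted p = 0.000725).

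Col4a1, on the other side of that promoter, varied far more between animals. Col4a1 (chromosome 8, 11198423 to 11312826, minus strand) read 230.0, 68.1, 82.3 and 97.0 CPM in C1 to C4, 223, 197, 312 and 146 CPM in V1 to V4, and 140.0, 136, 221 and 174 CPM in T1 to T4. C1 lay above 3 of the HFpEF-Veh libraries and above every HFpEF-TYA-018 library. The log2 fold changes were 0.88 ± 0.35 (edgeR, BH-adjusted p = 0.0938) and -0.39 ± 0.35 (adjusted p = 0.473), and neither was called. Without C1 the first was 1.41 with an adjusted p of 0.00273. The ratio of Col4a1 to Col4a2 was 1.03 in C1 and 0.357 to 0.483 in C2 to C4, and it ran from 0.390 to 0.718 in HFpEF-Veh and from 0.526 to 0.904 in HFpEF-TYA-018. Counts of Col4a1 were fractional in 11 of 12 libraries, whereas those of Col4a2 were whole in all, to within 0.01. Of the distinct 31-base words of Col4a1 transcripts, 0.0664% occur in other genes.

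Col4a3 and Col4a4, a second head-to-head pair, were scarce. Col4a3 (chromosome 1, 82586921 to 82722059, plus strand) read 3.27, 2.42, 3.33 and 2.82 CPM in C1 to C4, 2.68, 3.69, 3.43 and 4.74 CPM in V1 to V4, and 2.43, 2.28, 2.71 and 2.32 CPM in T1 to T4. Col4a4 (chromosome 1, 82448423 to 82586849, minus strand) read 8.87, 6.78, 7.21 and 7.25 CPM in C1 to C4, 9.78, 9.68, 7.69 and 8.18 CPM in V1 to V4, and 5.81, 6.05, 6.71 and 6.03 CPM in T1 to T4. The HFpEF-TYA-018 libraries of Col4a4 lay below those of both other groups, whereas T3 overlapped V1 in Col4a3. From Control-Veh to HFpEF-Veh neither was called, at log2 fold changes of 0.30 ± 0.17 (edgeR, BH-adjusted p = 0.226) and 0.23 ± 0.11 (adjusted p = 0.145). Without C1 that of Col4a4 was 0.32 and was called (edgeR, BH-adjusted p = 0.0334). From HFpEF-Veh to HFpEF-TYA-018 both fell, by 1.49-fold (log2 fold change -0.58 ± 0.17, edgeR, BH-adjusted p = 0.0326) and 1.44-fold (-0.52 ± 0.11, adjusted p = 0.0072). The call of Col4a3 was lost in 6 of the 8 fits that left out 1 library.

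Col4a5 and Col4a6 form the remaining pair, on chromosome X, with start sites 1343 bases apart. Col4a5 (chromosome X, 141475385 to 141689234, plus strand) read 21.9, 22.5, 19.5 and 23.0 CPM in C1 to C4, 12.9, 13.8, 14.2 and 17.2 CPM in V1 to V4, and 16.9, 14.3, 14.5 and 13.6 CPM in T1 to T4. All 8 libraries of the HFpEF animals were below all 4 Control-Veh libraries. The log2 fold change was -0.58 ± 0.10 to HFpEF-Veh (edgeR, BH-adjusted p = 0.0023) and 0.03 ± 0.10 from HFpEF-Veh to HFpEF-TYA-018 (adjusted p = 0.882). The fall of Col4a5 beside the rise of Col4a2 took the ratio of Col4a5 to Col4a2 from 0.0951 to 0.118 in Control-Veh to 0.0328 to 0.0460 in HFpEF-Veh, and it was 0.0513 to 0.0732 in HFpEF-TYA-018, with no overlap between any 2 groups. Col4a6 averaged 0.984 ± 0.229, 1.03 ± 0.187 and 0.937 ± 0.197 CPM, with log2 fold changes of 0.07 and -0.14, and was not called.

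**Figure D3:**
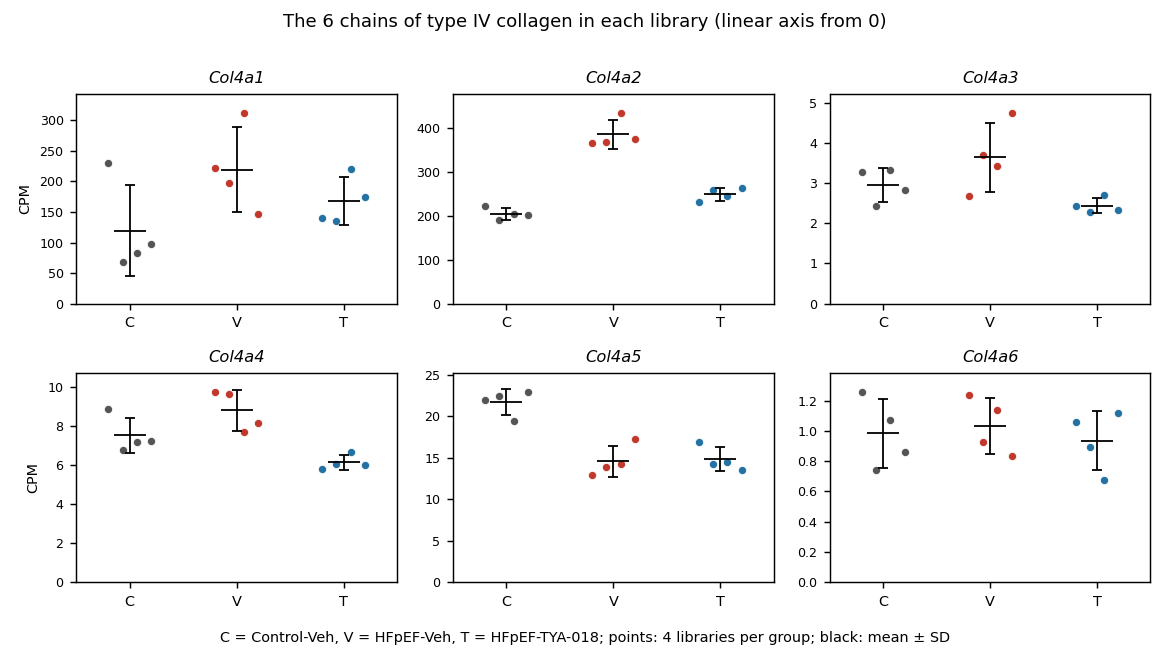
Levels in CPM (y axis, linear from 0, a scale of its own in each panel) of the 6 type IV chains in each library of Control-Veh (C), HFpEF-Veh (V) and HFpEF-TYA-018 (T), with mean and SD in black. Col4a2 separates the 3 groups, Col4a1 has 1 high Control-Veh library at 230 CPM, and Col4a5 is lower in all 8 HFpEF libraries.

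Type VI collagen is assembled from Col6a1, Col6a2 and one further chain, mostly Col6a3, and these 3 genes rose in HFpEF-Veh by 1.57-fold to 1.66-fold. Col6a1 (chromosome 10, 76708792 to 76726168, minus strand) read 51.5, 43.1, 45.0 and 42.5 CPM in C1 to C4, 76.5, 77.0, 66.2 and 70.9 CPM in V1 to V4, and 48.5, 51.5, 54.7 and 52.2 CPM in T1 to T4. Col6a2 (chromosome 10, 76595762 to 76623630, minus strand) read 57.7, 43.1, 47.6 and 47.3 CPM in C1 to C4, 81.0, 88.3, 74.1 and 82.1 CPM in V1 to V4, and 50.8, 53.8, 57.9 and 53.6 CPM in T1 to T4. In both genes the HFpEF-Veh libraries were above all others, and the other groups overlapped. Col6a1 had log2 fold changes of 0.67 ± 0.07 (edgeR, BH-adjusted p = 0.000441) and -0.49 ± 0.07 (adjusted p = 0.00178). Those of Col6a2 were 0.73 ± 0.09 (edgeR, BH-adjusted p = 0.000507) and -0.59 ± 0.09 (adjusted p = 0.00156). Col6a3 (chromosome 1, 90765923 to 90843971, minus strand) read 20.6, 12.6, 15.5 and 13.3 CPM in C1 to C4, 25.3, 26.3, 20.3 and 25.7 CPM in V1 to V4, and 18.7, 20.1, 21.3 and 17.3 CPM in T1 to T4. V3 lay just below C1 and within the HFpEF-TYA-018 range, and the other HFpEF-Veh libraries were above the rest. The rise of Col6a3 was 0.65 ± 0.14 on the log2 scale (edgeR, BH-adjusted p = 0.00825), and its log2 fold change to HFpEF-TYA-018, -0.34 ± 0.14, was not called (adjusted p = 0.119). The ratio of Col6a1 to Col6a2 stayed between 0.864 and 0.998 in all 12 libraries. Col6a6, which can take the place of Col6a3, averaged 6.97 ± 1.74, 5.69 ± 1.54 and 4.46 ± 0.469 CPM, with log2 fold changes of -0.29 ± 0.20 and -0.35 ± 0.20, and was not called. Of its 31-base words 4.31% also occur in other genes, mostly in Col6a5.

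Among the chains of other classes Col15a1 and Col23a1 were called. Type XV collagen is a multiplexin that links basement membranes to fibrils, and its only chain is Col15a1. Col15a1 (chromosome 4, 47208161 to 47313167, plus strand) read 50.1, 36.8, 44.7 and 37.5 CPM in C1 to C4, 67.9, 74.7, 54.1 and 58.3 CPM in V1 to V4, and 42.7, 48.5, 54.8 and 42.1 CPM in T1 to T4. The HFpEF-Veh libraries were above the Control-Veh libraries, while T3 just exceeded V3. The log2 fold changes were 0.59 ± 0.13 (edgeR, BH-adjusted p = 0.00805) and -0.44 ± 0.13 (adjusted p = 0.0331), the second being lost in 5 of the 8 fits that left out 1 library. Type XXIII collagen spans the cell membrane. Col23a1 (chromosome 11, 51289920 to 51583918, plus strand) read 3.05, 2.63, 2.24 and 2.26 CPM in C1 to C4, 1.94, 1.75, 1.37 and 1.94 CPM in V1 to V4, and 2.01, 2.06, 2.11 and 2.14 CPM in T1 to T4. All HFpEF-Veh libraries were below the other 8. The log2 fold change was -0.54 ± 0.15 to HFpEF-Veh (edgeR, BH-adjusted p = 0.0249), lost in 4 of the 8 such fits, and 0.25 ± 0.15 from there to HFpEF-TYA-018 (adjusted p = 0.273). Col18a1, the other multiplexin and the source of endostatin, averaged 11.2 ± 1.17, 12.4 ± 0.535 and 11.6 ± 0.452 CPM and was not called, but was higher in HFpEF-Veh without C1, at 0.23 on the log2 scale (edgeR, BH-adjusted p = 0.0195).

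The remaining chains were low or variable. None of the 7 tested FACIT chains was called by edgeR in any comparison, and 3 (42.9%, beside 35.5% of all genes) had an unadjusted p under 0.05 between HFpEF-Veh and Control-Veh. Col14a1, a FACIT on the surface of type I fibrils, averaged 5.21 ± 2.39, 7.76 ± 1.30 and 5.92 ± 0.505 CPM, with C1 at 8.76 CPM. Without C1 its log2 fold change to HFpEF-Veh was 0.95, with an edgeR BH-adjusted p of 0.00113. Col12a1 averaged 0.524 ± 0.157, 0.962 ± 0.391 and 0.523 ± 0.0794 CPM, and Col16a1 6.31 ± 0.861, 7.22 ± 1.15 and 7.44 ± 0.659 CPM. Col8a1, a network chain, averaged 10.8 ± 3.76, 16.6 ± 1.32 and 12.8 ± 3.46 CPM. Its log2 fold changes were 0.62 ± 0.23 (edgeR, BH-adjusted p = 0.0709) and -0.38 ± 0.22 (adjusted p = 0.263), and the first was called by DESeq2 and, at 0.88, by edgeR without C1 (BH-adjusted p = 0.00697). Col7a1 of the anchoring fibrils averaged 1.91 ± 0.255 CPM in Control-Veh and 1.29 ± 0.0582 in HFpEF-Veh, with no overlap, at an edgeR BH-adjusted p of 0.0558, and was called by DESeq2 (adjusted p = 0.0407) and by edgeR with only the 2 groups (adjusted p = 0.0378). Over the 20 tested chains called in no comparison, log2 fold changes ran from -0.60 to 1.52 between HFpEF-Veh and Control-Veh and from -0.88 to 0.63 between HFpEF-TYA-018 and HFpEF-Veh. The values of -0.60 and 0.63 belonged to Col11a2, that of -0.88 to Col12a1 and that of 1.52 to Col9a2, which averaged 0.0953 ± 0.0482, 0.277 ± 0.125 and 0.296 ± 0.129 CPM. Col9a2 was called higher in HFpEF-Veh by DESeq2 (adjusted p = 0.0424) and by edgeR without C1 (adjusted p = 0.0254). Col8a2, Col9a3, Col25a1 and Col26a1 stayed below 1 CPM in every library.

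Against Control-Veh directly, 2 chains of HFpEF-TYA-018 were higher and 1 was lower by edgeR, which is 5.71% and 2.86% of the chains beside 3.12% and 2.74% of all genes. The higher ones were Col1a1, at a log2 fold change of 0.48 ± 0.13 (edgeR, BH-adjusted p = 0.0476), and Col4a2, at 0.29 ± 0.08 (adjusted p = 0.0468). The lower one was Col4a5, at -0.55 ± 0.10 (edgeR, BH-adjusted p = 0.00975). The libraries did not overlap in 9 chains (25.7%, beside 14.8% of all genes), HFpEF-TYA-018 lying above in 2 and below in 7. The latter included Col23a1, at a log2 fold change of -0.29, as well as Col27a1, Col4a4, Col6a6, Col7a1 and Col25a1, with log2 fold changes of -0.32, -0.29, -0.64, -0.55 and -0.91. This comparison turned on C1: without it 9 chains were higher and 1 was lower (25.7% and 2.86%, beside 2.96% and 2.61% of all genes in that fit). The higher ones were Col4a1 at 1.02, Col3a1 at 0.61, Col1a1 at 0.59, Col14a1 at 0.56 and Col1a2 at 0.53. Col5a2 at 0.50, Col6a3 at 0.49, Col4a2 at 0.33 and Col6a1 at 0.25 were the others. Leaving out any other library left only Col4a5. Over the 35 chains the median log2 fold change was 0.10, beside -0.02 over all genes.

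**Figure D4:**
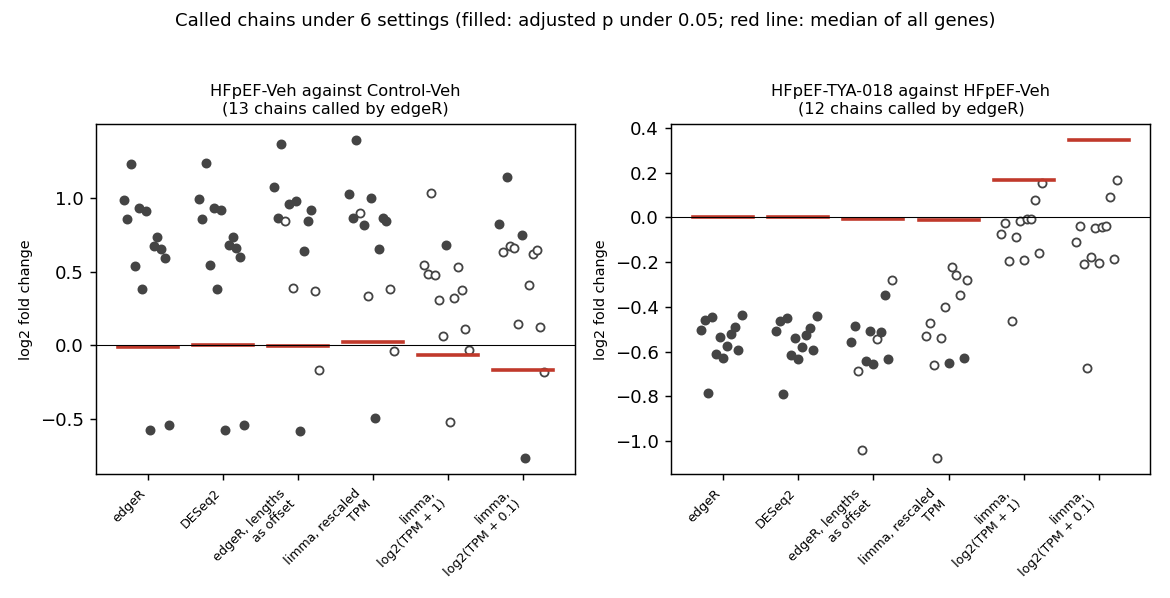
Log2 fold changes (y axis) of the chains that edgeR called between HFpEF-Veh and Control-Veh (left, 13 chains) and between HFpEF-TYA-018 and HFpEF-Veh (right, 12 chains) under 6 settings (x axis), filled where the adjusted p was under 0.05, with the median of all genes as a red line. On the right the 12 chains lie below that line in every setting, while on log2(TPM + 1) the line itself stands at 0.17 and no chain is filled.

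Genes that act on collagen were taken as a list of 56, of which 54 were tested. Between HFpEF-Veh and Control-Veh 21 were higher (38.9%, beside 10.9% of all genes) and 2 lower (3.70%, beside 10.3%). Between HFpEF-TYA-018 and HFpEF-Veh 2 were higher (3.70%, beside 8.93%) and 19 lower (35.2%, beside 10.4%). The same shares of all genes stand behind the counts by role and of markers that follow. The exceptions were Klhl12 and P3h4, a partner of lysyl hydroxylase, which read -0.44 and 0.49 on the log2 scale in these comparisons, both of which use the HFpEF-Veh libraries. Between HFpEF-TYA-018 and Control-Veh 6 were higher (11.1%, beside 3.12% of all genes) and none lower by edgeR, namely P4ha1 at 0.42, Plod1 at 0.17, Serpinh1 at 1.52, Pcolce at 0.37, Bgn at 0.38 and Postn at 0.64. Of 14 tested genes for hydroxylation and glycosylation, steps that stabilise the helix, 6 rose and 1 fell in HFpEF-Veh, and 1 rose and 3 fell from there to HFpEF-TYA-018. Plod1, a lysyl hydroxylase, averaged 63.0 ± 1.42, 83.2 ± 1.89 and 70.7 ± 2.02 CPM in the order Control-Veh, HFpEF-Veh, HFpEF-TYA-018, with log2 fold changes of 0.40 ± 0.04 and -0.23 ± 0.04 (edgeR, BH-adjusted p = 0.000441 and 0.00539). P4ha1, a prolyl hydroxylase subunit, averaged 27.8 ± 2.04, 38.1 ± 2.04 and 37.1 ± 1.43 CPM and was called higher in HFpEF-Veh (log2 fold change 0.45 ± 0.06, edgeR, BH-adjusted p = 0.000922) but not between the HFpEF groups (-0.04 ± 0.06).

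Of 8 genes for folding and export, 2 rose and 1 fell in HFpEF-Veh, and 1 rose and 1 fell from there to HFpEF-TYA-018. Fkbp14, a folding enzyme of the endoplasmic reticulum, had log2 fold changes of 0.98 ± 0.13 and -0.76 ± 0.13 (edgeR, BH-adjusted p = 0.000728 and 0.00285). Klhl12, an adaptor for large transport vesicles, ran the other way at -0.20 ± 0.06 and 0.28 ± 0.06 (edgeR, BH-adjusted p = 0.0277 and 0.00723). Serpinh1, the collagen chaperone HSP47, averaged 20.2 ± 4.31, 44.0 ± 16.0 and 57.8 ± 13.8 CPM, and stood 2.86-fold above Control-Veh in HFpEF-TYA-018 (edgeR, BH-adjusted p = 0.0085). Serpinh1 and P3h4, like Lox, Loxl3 and Mrc2 below, were chosen after their values were seen. Of 8 genes for propeptide cleavage 3 rose in HFpEF-Veh and 1 fell from there to HFpEF-TYA-018. Adamts2, the protease that removes the amino-terminal propeptide, had log2 fold changes of 0.83 ± 0.15 and -0.49 ± 0.15 (edgeR, BH-adjusted p = 0.00313 and 0.037), and Pcolce, an enhancer of carboxy-terminal cleavage, 0.48 ± 0.08 and -0.11 ± 0.08 (edgeR, BH-adjusted p = 0.00292 and 0.397).

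The cross-linking oxidases and the proteins that bind fibrils held the highest shares of calls in the comparisons that use HFpEF-Veh. Between HFpEF-TYA-018 and Control-Veh edgeR called 0 of 5 oxidases and 2 of 11 partners. At an unadjusted p under 0.05 there was 1 oxidase (20.0%, beside 22.5% of all genes). Of 5 oxidases, Lox, Loxl1 and Loxl2 rose in HFpEF-Veh, and these and Loxl3 were lower in HFpEF-TYA-018 than in HFpEF-Veh. Loxl2 averaged 8.15 ± 1.93, 18.7 ± 1.27 and 9.79 ± 0.489 CPM, with log2 fold changes of 1.19 ± 0.13 and -0.93 ± 0.13 (edgeR, BH-adjusted p = 0.000441 and 0.00141). For Loxl1 the log2 fold changes were 0.61 ± 0.09 and -0.36 ± 0.09 (edgeR, BH-adjusted p = 0.0011 and 0.0163). Of 11 fibril partners 6 rose and none fell in HFpEF-Veh, and 8 fell and none rose from there to HFpEF-TYA-018. Postn, periostin of activated fibroblasts, had log2 fold changes of 1.20 ± 0.14 and -0.56 ± 0.14 (edgeR, BH-adjusted p = 0.000528 and 0.0189), and Bgn, the proteoglycan biglycan, 0.75 ± 0.10 and -0.36 ± 0.10 (edgeR, BH-adjusted p = 0.000847 and 0.0259). Of 8 tested receptors, Mrc2, an endocytic receptor for collagen, rose in HFpEF-Veh, and 2 were lower in HFpEF-TYA-018 than in HFpEF-Veh. The latter were Ddr2, a receptor kinase for fibrillar collagen, at -0.33 ± 0.09 (edgeR, BH-adjusted p = 0.0249), and Lair1, an inhibitory receptor of leukocytes, at -1.13 ± 0.35 (adjusted p = 0.0388). On log2(TPM + 1) limma called 3 of the 54 genes higher and 1 lower between the HFpEF groups, beside 2228 and 68 of all 14333 genes.

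**Figure D5:**
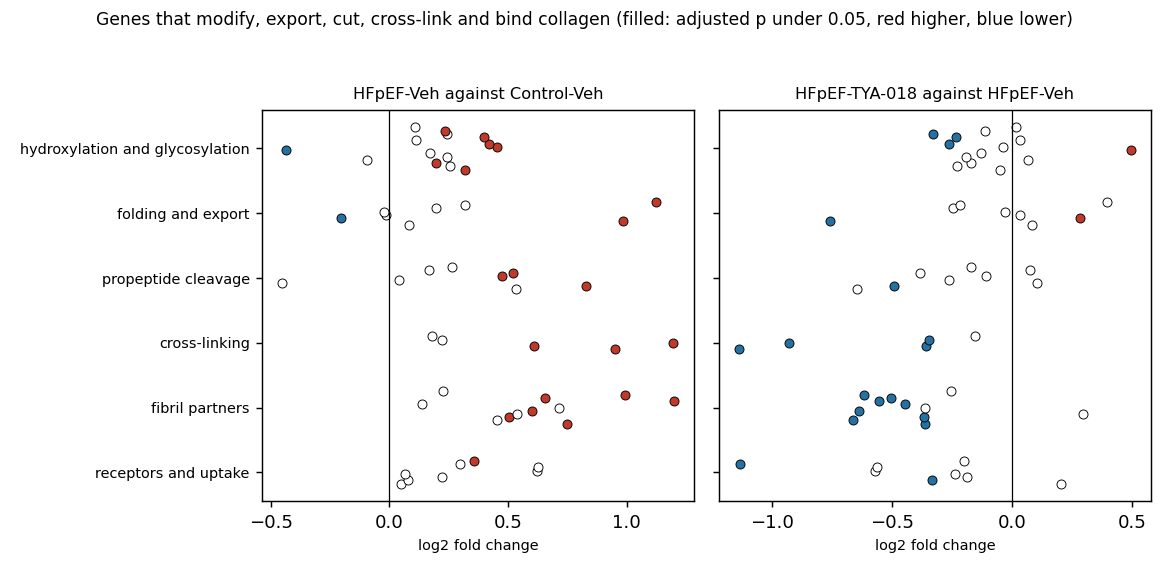
Log2 fold changes (x axis) of the 54 tested genes that act on collagen, 1 point a gene, by role (rows), between HFpEF-Veh and Control-Veh (left) and between HFpEF-TYA-018 and HFpEF-Veh (right), filled red where higher and blue where lower at an edgeR BH-adjusted p under 0.05. The left panel has 21 red and 2 blue points, the right panel 2 red and 19 blue.

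On CPM, the sums of markers of several cell types moved with the chains. The 7 fibroblast markers summed to 609 to 1002 CPM in Control-Veh, 917 to 1306 in HFpEF-Veh, then 621 to 943 in HFpEF-TYA-018. Of them 3 were called higher in HFpEF-Veh and 3 lower from there to HFpEF-TYA-018, Pdgfra averaging 19.6 ± 3.97, 27.6 ± 2.08 and 18.4 ± 1.94 CPM. In C1 these markers summed to 1002 CPM and in C3 to 907 CPM, against 609 and 647 CPM in C2 and C4. Of 8 tested markers of activated fibroblasts 3 were higher in HFpEF-Veh and 2 lower in HFpEF-TYA-018, with sums of 103 to 162, 160.3 to 201 and 158 to 175 CPM. Against Control-Veh, 1 fibroblast marker was lower and 2 markers of activated fibroblasts were higher in HFpEF-TYA-018. Postn belongs to the second list as well as to the fibril partners. Dcn and Dpt are both fibroblast markers and fibril partners, and Fmod is both a partner and a valve marker. Dcn alone averaged 323, 442 and 279 CPM in the order Control-Veh, HFpEF-Veh, HFpEF-TYA-018. The calls of these lists are therefore partly the same genes. The 7 endothelial markers summed to 741 to 874, 897 to 1082 and 705 to 874 CPM, with 3 called higher and then 3 lower. The sum of 7 macrophage markers was 78.5 to 92.8, 122 to 156 and 84.2 to 98.6 CPM, with 6 higher and then 4 lower. On TPM the endothelial sum averaged 166 ± 3.26 in Control-Veh, 162 ± 15.5 in HFpEF-Veh, then 197 ± 34.9 in HFpEF-TYA-018 (SD). The fibroblast sum averaged 186 ± 39.6, 203 ± 24.8 and 183 ± 24.6 TPM, which differed by less than the spread. The activated fibroblast sum was highest in HFpEF-TYA-018 by mean, at 37.9 ± 9.55 TPM. The macrophage sum, at 26.4 ± 2.77, 39.2 ± 6.43 and 34.9 ± 3.91 TPM, still rose and then fell by mean.

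Of the 8 cardiomyocyte markers 6 were lower and 1 higher in HFpEF-Veh, and 3 were higher in HFpEF-TYA-018 than in HFpEF-Veh. Their sum was 27489.9 to 38574 CPM in Control-Veh, lowest in C1, 25485 to 27075 CPM in HFpEF-Veh, then 29092 to 32000.5 CPM in HFpEF-TYA-018. All 5 red cell markers were higher in HFpEF-Veh and lower from there to HFpEF-TYA-018, with sums of 1553 to 2309 and 4785 to 14138 CPM in the vehicle groups and a mean of 2911 ± 569 CPM in HFpEF-TYA-018. Mitochondrial genes took 43.1% to 47.7% of the counts in HFpEF-Veh, above the other groups, where they took 35.4% to 41.2%. Leaving the globin and mitochondrial genes out of the table gave the same counts of called chains, 13, 12 and 3 in the 3 comparisons. Of 8 smooth muscle and pericyte markers 1 was higher and then lower, with sums of 638 to 743, 763 to 813 and 551 to 709 CPM. Of 2 tested epicardial markers 1 was called higher and then lower, 1 of 3 atrial markers was lower in HFpEF-Veh, and 1 of 2 fat cell markers was lower in HFpEF-TYA-018 than in HFpEF-Veh, while none of 5 Schwann cell markers and none of 4 valve and cartilage-like markers was called by edgeR. No listed marker averaged 0 in a group. The part of these cell types in the levels of the chains was not tested.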

How the data were processed

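Polyadenylated RNA of the left ventricle was sequenced from 12 mice, 4 per group, after stranded library preparation. Per the study's methods, the authors trimmed reads with fastp 0.23.3, quantified transcripts with salmon 1.6.0 against GENCODE annotation of GRCm38.p6 and summed them to genes with tximport. They kept protein-coding genes detected in most samples, left out mitochondrial genes, rescaled the TPM and analysed log2(TPM + 1). The setting named TPM rescaled to protein-coding genes follows these steps, also without mitochondrial genes, and is nearer to the study's scale than log2(TPM + 1) of the deposited values. The labels list the human build hg38 in place of GRCm38.p6. The authors deposited estimated counts, which are not normalised, TPM, which divide by effective length and library total, and the effective lengths themselves, each as 1 table of 29564 genes, and no column of per-sample values was left unused. Between 80.3% and 82.7% of the estimated counts in a library, zeros included, were whole to within 0.01.

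Estimated counts were rounded. Tests used edgeR 4.0.16 under R 4.3.3 (quasi-likelihood test, TMM scaling, low counts filtered by filterByExpr, 1 model over the 3 groups, 9 residual degrees of freedom). P-values were adjusted by Benjamini and Hochberg over 14333 genes and called under 0.05. TPM were tested with limma 3.58.1 on log2(TPM + 1). The tests across genes were first run on simulated data with known changes. Alternatives were DESeq2 1.42.0, other scaling, no filter, effective lengths as an offset, 2 groups at a time, TPM scales and leaving out each library. The collagen genes, classes and gene lists were chosen with earlier results of these data known. Every chain was accounted for: chains called in any comparison are given per library, chains of the same molecules and others by group or range. Of the genes that act on collagen, 12 were named by rule, as those with the smallest p per role, and the 5 others were picked after their values were seen. As for sequences, promoters were shown for at most 4 chains by p, plus Col4a1 and Col4a2. Gene coordinates are from the annotation of GRCm38 and promoters from RefSeq.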

Additional observations from a re-analysis of the deposited data

Results flagged for a closer look

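Among 105 sets of 4 libraries of 1 group, over the 35 tested chains, 7 held a library whose gap to its nearest neighbour passed Dixon's 95% critical value, and chance flags about 1 in 20 such sets. In Control-Veh, C1 was high for Col14a1 at 8.76 CPM, against 3.56 to 4.33 CPM in the other libraries, and for Col6a6 at 9.56 CPM, against 5.85 to 6.28 CPM. In HFpEF-Veh, V3 was high for Col4a2 at 434 CPM, against 365 to 375 CPM, and V4 was low for Col25a1 at 0.226 CPM, against 0.361 to 0.388 CPM. In HFpEF-TYA-018, T1 was high for Col16a1 at 8.43 CPM, against 7.08 to 7.13 CPM, T2 was high for Col8a2 at 0.447 CPM, against 0.194 to 0.216 CPM, and T4 was high for Col22a1 at 1.71 CPM, against 0.836 to 0.955 CPM.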

How the results depend on the processing

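No paired analysis was possible because the animal numbers are not shared between the groups. Between HFpEF-Veh and Control-Veh the 13 called chains became 1 with limma on log2(TPM + 1) and 4 on log2(TPM + 0.1), and 11 to 18 when 1 library was left out, 18 without C1. Over all genes 1561 called higher and 1472 lower became 51 and 121, 93 and 208, and 2054 and 1938 without C1. Between HFpEF-TYA-018 and HFpEF-Veh, of the 12 chains called lower, 0 kept the call on log2(TPM + 1), 0 on log2(TPM + 0.1) and 2 on TPM rescaled to protein-coding genes. Each of these scales also called Col11a2 higher, which is not 1 of the 12. Over all genes these scales called 2228, 2548 and 368 higher and 68, 70 and 405 lower, against 1280 and 1487 on counts. When 1 library was left out, 8 to 12 chains were called. Between HFpEF-TYA-018 and Control-Veh the 3 became 5 with DESeq2, 1 with no filter, 1 with effective lengths as an offset, 1 with only 2 groups, 0 and 0 on the log2(TPM) scales and 1 on rescaled TPM, and 1 to 10 when 1 library was left out, 10 without C1. Over all genes 447 called higher and 393 lower became 769 and 728 with DESeq2, 323 and 265 with no filter, and 108 and 95 with the offset. They became 344 and 224 with only 2 groups, 4 and 5 and then 7 and 4 on the log2(TPM) scales, and 53 and 46 on rescaled TPM. Without C1 they were 430 and 379. Of the genes that act on collagen, the 23 called between HFpEF-Veh and Control-Veh became 10 with the offset, 3 on log2(TPM + 1), 4 on log2(TPM + 0.1), 9 on rescaled TPM and 17 to 26 when 1 library was left out. In the same order the 21 between HFpEF-TYA-018 and HFpEF-Veh became 7, 4, 4, 4 and 8 to 18, and the 6 between HFpEF-TYA-018 and Control-Veh became 1, 0, 0, 1 and 2 to 6. With the offset, all genes called higher and lower numbered 809 and 636, 565 and 652, and 108 and 95 in the 3 comparisons. On rescaled TPM these numbered 673 and 417, 368 and 405, and 53 and 46. The cause of the changes in these counts was not tested, and the fits that left out a library also had fewer samples.

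Single chains were followed through every setting for the 15 called chains and Col4a1, and changed sign on the log2 scale in 18 cases. The other 19 tested chains were not followed one by one, and over all 35 the median from HFpEF-Veh to HFpEF-TYA-018 was 0.01 on log2(TPM + 1). From HFpEF-Veh to HFpEF-TYA-018, Col15a1 read 0.15 on log2(TPM + 1) and 0.17 on log2(TPM + 0.1), Col6a1 0.078 and 0.091, and Col6a3 0.039 and 0.048. Col23a1 read -0.31 with the offset and -0.10 on rescaled TPM. Col4a5 read -0.0074 with the offset, -0.012 on rescaled TPM and -0.045 to 0.116 when 1 library was left out, with -0.026 without V1 and -0.045 without T1. From Control-Veh to HFpEF-Veh, Col4a4 read -0.00088 and -0.0026 on the log2(TPM) scales. From Control-Veh to HFpEF-TYA-018, Col5a1 read -0.20 with the offset and -0.18 on rescaled TPM, and Col5a3 0.050 and 0.094 on the log2(TPM) scales. Of the other values of these 16 chains, 666 kept direction and side of the threshold, 122 lost the call and 10 gained it. Counts limit the chains under 1 CPM, and 4 animals a group limit small changes.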
